A study of Sus scrofa with 23 samples.

Results

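BMP4, SMAD5 and TGIF1 are 3 genes of bone morphogenetic protein (BMP) and transforming growth factor-beta (TGF-beta) signalling, and their RNA was followed in pig oocytes and pre-implantation embryos made by cloning or by fertilization in the sow. They were taken by their Ensembl identifiers, ENSSSCG00000005045, ENSSSCG00000014319 and ENSSSCG00000024174, as 3 of the 8603 genes of one expression table, and were picked with earlier results of these data known. The table covers 23 libraries, each of pooled oocytes or embryos and 1 for each condition. The IV-D group has 1 library of oocytes that had matured in Duroc sows and 7 libraries of embryos from Duroc sows inseminated with semen of a single Duroc boar, so its embryos were paternal half-sibs of both sexes that had developed in the reproductive tract. The NT-D group (7 libraries of embryos) and the NT-LW group (7 libraries) were somatic cell nuclear transfer embryos, each made with ear fibroblasts of one boar, a Duroc boar (the sire of the IV-D embryos) or a Laiwu boar, so all clones of a group carried 1 male genotype and were cultured in vitro. The in vitro matured recipient oocytes (1 library), which carry the NT-D name but came from hybrid sows, are the starting cells of both clone groups. Each group was sampled at the 1-cell, 2-cell, 4-cell and 8-cell stage, at the morula, and in 2 parts of the blastocyst, IT (the inner cell mass with the trophectoderm around it) and TE (trophectoderm alone).

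BMP4 is a secreted ligand that binds pairs of serine/threonine kinase receptors. The receptors activated by BMPs phosphorylate SMAD1, SMAD5 and SMAD9, which join SMAD4 and enter the nucleus, while activin, nodal and TGF-beta receptors act through SMAD2 and SMAD3. TGIF1 is a homeodomain repressor of the TALE family (homeodomains with a three-residue loop extension) that binds SMAD2 and SMAD3 and brings histone deacetylases to their targets. In mammalian embryos BMP4 is best known from the trophectoderm and extraembryonic ectoderm, where it acts on the neighbouring epiblast.

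In the RefSeq annotation of Sscrofa11.1, the build of the deposited values, BMP4 lies on the minus strand of chromosome 1 from 183415989 to 183422888, SMAD5 on the plus strand of chromosome 2 from 138287635 to 138344092, and TGIF1 on the minus strand of chromosome 6 from 103226395 to 103234591. No other annotated gene overlaps any of the 3 on either strand. Because the 3 genes reached their highest levels at different stages, the 250 bases before the outermost RefSeq start of each are shown, 5′ to 3′ on the gene's own strand. Capitals mark GGCGCC (bound by SMAD1 and SMAD5), CAGAC (the short SMAD-binding element) and TGTCA (the core bound by TGIF1), searched on both strands.
BMP4, chr1:183422889-183423138, minus strand: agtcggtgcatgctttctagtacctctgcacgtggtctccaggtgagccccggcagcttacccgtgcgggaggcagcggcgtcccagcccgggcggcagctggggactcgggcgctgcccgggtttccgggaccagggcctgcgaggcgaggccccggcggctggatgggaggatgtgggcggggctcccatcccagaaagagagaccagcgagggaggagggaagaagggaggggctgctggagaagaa
SMAD5, chr2:138287385-138287634, plus strand: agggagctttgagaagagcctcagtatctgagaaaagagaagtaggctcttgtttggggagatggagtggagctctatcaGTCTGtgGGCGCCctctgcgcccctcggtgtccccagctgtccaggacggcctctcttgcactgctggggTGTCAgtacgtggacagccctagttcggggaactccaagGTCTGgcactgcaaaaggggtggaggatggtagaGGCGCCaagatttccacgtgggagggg
TGIF1, chr6:103234592-103234841, minus strand: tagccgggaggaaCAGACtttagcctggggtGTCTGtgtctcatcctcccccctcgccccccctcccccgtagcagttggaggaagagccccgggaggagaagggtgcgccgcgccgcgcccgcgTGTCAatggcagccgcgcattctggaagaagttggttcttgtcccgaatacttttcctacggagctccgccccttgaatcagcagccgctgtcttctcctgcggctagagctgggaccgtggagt
The SMAD5 window held 2 matches to GGCGCC, 2 to CAGAC and 1 to TGTCA, the TGIF1 window 2 to CAGAC and 1 to TGTCA, and the BMP4 window none. None of the 3 windows held TATAAA. Of 19556 windows of the same length before protein-coding genes, 16.1% held GGCGCC, 39% CAGAC, 28.1% TGTCA and 9.77% TATAAA, so most of these matches are to common short words. All 3 windows were above the median GC content of all windows (57.6%), with 69.6% for BMP4, 58.8% for SMAD5 and 63.6% for TGIF1. RefSeq gives BMP4 5 distinct transcript starts, SMAD5 3 and TGIF1 5, and the gene-level values do not separate them.

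The values are FPKM, fragments per kilobase of gene relative to the depth of the library, and whole fragments could be recovered behind them in every library. Depth was 14952784 to 22991067 fragments, and the members were read from 26 to 1674 fragments per library for BMP4, 179 to 4908 for SMAD5 and 10 to 1236 for TGIF1. Intervals below are exact 95% intervals of the counting error only (Poisson for a level, binomial for a ratio), and a gene with no fragment may still be at up to 3, which on 1 kb is 0.130 to 0.201 FPKM. With 1 library per condition no spread between embryos could be estimated and no difference was tested. Differences are called past the fold where log2(FPKM + 1) differed by more than 1, a change of 2 times on that scale, with an FPKM of at least 1 in one of the libraries. The 8603 genes are, by the name of the table, the differentially expressed ones, so the share of genes past the fold given beside each comparison is a share of selected genes. Counts for gene lists are over all list genes in the table. They include genes below 1 FPKM in both libraries, which cannot be past the fold and which the shares leave out. In pools, fewer cells of a type and less RNA per cell cannot be told apart. Markers of the inner cell mass did not all separate IT from TE. Of 4 epiblast markers in the table, 3 were past the fold upwards and 1 downwards in IT against TE in IV-D, and 1 was upwards in each clone group, and of 5 hypoblast markers 1 was upwards in each group, beside 18.0% of all genes tested upwards in IV-D, 4.32% in NT-D and 5.07% in NT-LW. The markers upwards in every group were NANOG, at 3.76 to 9.80 FPKM in IT with no fragment in the 3 TE libraries, and PDGFRA, at 1.66 to 11.6 in IT and 0.0392 to 0.121 in TE. DPPA5, the most abundant epiblast marker, was at 49.6 in IT and 168 in TE in IV-D, and GDF3 was at 9.68 in IT and 14 in TE in NT-D and at 6.73 and 9.08 in NT-LW. The summed trophectoderm markers were at 2392 to 5649 in TE and 2758 to 3969 in IT, so IT holds trophectoderm in every group.

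BMP4 had its highest level at the 4-cell stage in all 3 groups, and that level was highest in IV-D. In IV-D it was at 0.908 FPKM in oocytes, 4.01 at the 1-cell, 2.40 at the 2-cell, 30.5 at the 4-cell and 3.14 at the 8-cell stage, then 0.425 in morulae, 0.388 in IT and 0.774 in TE. In NT-D it was at 4.94 in the recipient oocytes, 3.92, 1.63, 8.03 and 2.83 from the 1-cell to the 8-cell stage, 2.69 in morulae, 0.942 in IT and 0.575 in TE. In NT-LW it was at 2.17, 3.38, 13.4 and 3.27 from the 1-cell to the 8-cell stage, 1.43 in morulae, 1.34 in IT and 0.934 in TE. The 4-cell libraries of the 3 groups thus took the first 3 places of the 23, each apart from the next by more than counting error. Below them 16 of the 22 neighbouring pairs in the order of levels did not differ beyond counting error, among them all 3 8-cell libraries. The paper describes BMP4 as weak in blastocysts and absent at other stages, which differs from these deposited values. The reason was not tested.

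SMAD5 was high in oocytes and up to the 2-cell stage in each group and lower in the blastocyst. At the 8-cell stage, in morulae and in IT it was past the fold upwards in both clone groups against IV-D. In IV-D it was at 33.5 FPKM in oocytes, 31.7, 23.6, 17.9 and 4.74 from the 1-cell to the 8-cell stage, 1.95 in morulae, 1.68 in IT and 6.45 in TE. In NT-D it was at 36.9 in recipient oocytes, 48.4, 29.7, 12.9 and 13.5 from the 1-cell to the 8-cell stage, 12.4 in morulae, 6.13 in IT and 8.80 in TE. In NT-LW it was at 34.7, 44.0, 12.8 and 12.9 from the 1-cell to the 8-cell stage, 6.44 in morulae, 4.63 in IT and 2.95 in TE. The IV-D 8-cell embryos held 14.1% of the level of their oocytes, against 36.6% in NT-D and 34.8% in NT-LW of the recipient oocyte level. The highest level was in NT-D 1-cell embryos and the lowest in IV-D IT, and 9 of the 22 neighbouring pairs did not differ beyond counting error, among them the 4-cell and 8-cell libraries of both clone groups.

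TGIF1 was close to absent up to the 2-cell stage in all groups and appeared at the 4-cell stage in the clones and at the 8-cell stage in IV-D. In IV-D it was at 0.783 FPKM in oocytes, 1.30, 0.592 and 0.937 from the 1-cell to the 4-cell stage, 37.2 at the 8-cell stage, 11.3 in morulae, 10.1 in IT and 9.23 in TE. In NT-D it was at 0.340 in recipient oocytes, 0.383, 0.889, 6.43 and 6.03 from the 1-cell to the 8-cell stage, 11 in morulae, 6.69 in IT and 2.78 in TE. In NT-LW it was at 0.303, 1.22, 5.40 and 12.3 from the 1-cell to the 8-cell stage, 13.8 in morulae, 6.51 in IT and 3.89 in TE. The IV-D 8-cell library was the highest of the 23 and the only one above 13.8. Of the 22 neighbouring pairs, 17 did not differ beyond counting error, including the next 5 places, which were held by the NT-LW morula and 8-cell, the IV-D morula, the NT-D morula and the IV-D IT libraries. The lowest 9 libraries, from 0.303 to 1.30, held 10 to 40 fragments each.

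**Figure D1:**
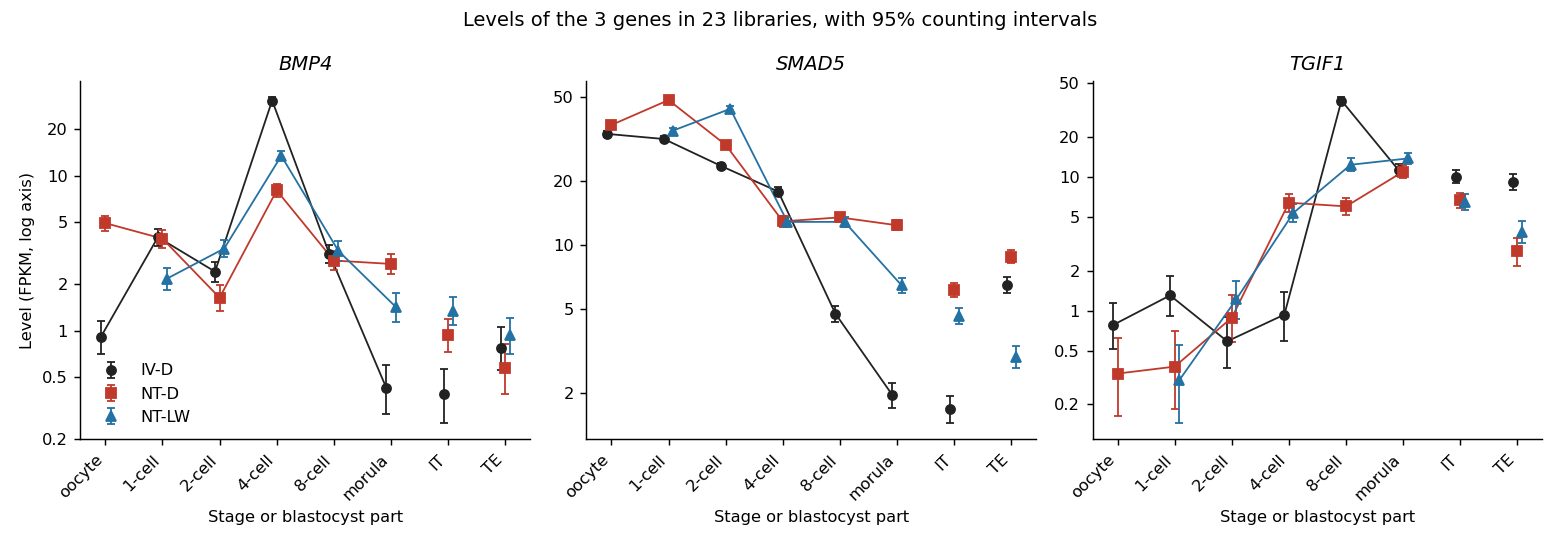
Level of each gene (FPKM, log axis) by stage or blastocyst part in IV-D (circles), NT-D (squares) and NT-LW (triangles), 1 library per point, with bars for the 95% counting interval and lines joining the stages up to the morula. BMP4 has its highest point at the 4-cell stage in all 3 groups (30.5, 8.03 and 13.4). SMAD5 at the 8-cell stage is lower in IV-D (4.74) than in the clones (13.5 and 12.9). TGIF1 is up at the 4-cell stage in the clones and highest in IV-D 8-cell embryos (37.2).

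The levels of SMAD5 and TGIF1 ran in opposite directions over the 23 libraries, with Pearson's r of -0.79 for log2(FPKM + 1) and Spearman's rho of -0.79. BMP4 followed neither closely (r of 0.44 with SMAD5 and -0.24 with TGIF1). The libraries share stages, donors and sequencing, so these values describe the 23 columns only.

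The stage steps show in which interval each gene moved. Between 2-cell and 4-cell embryos, 46.6% of the genes tested were past the fold in IV-D, 25.7% in NT-D and 36.4% in NT-LW, and so were 1 of the 3 members in IV-D and all 3 in both clone groups. BMP4 was 12.7-fold higher at the 4-cell stage in IV-D (interval 10.9 to 14.8), 4.93-fold higher in NT-D (3.96 to 6.18) and 3.97-fold higher in NT-LW (3.44 to 4.60). SMAD5 was past the fold downwards in this interval in NT-D (0.435 of the 2-cell level, 0.405 to 0.467) and NT-LW (0.292, 0.275 to 0.310), and was at 0.757 of it in IV-D (0.712 to 0.805). With median-ratio scaling the IV-D step of SMAD5 was past the fold as well (log2 of -1.18 against -0.38). TGIF1 was 7.23-fold higher in NT-D (4.75 to 11.4) and 4.42-fold higher in NT-LW (3.11 to 6.41), while the IV-D ratio of 1.58 had an interval of 0.850 to 2.96.

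From the 4-cell to the 8-cell stage, the interval around the main activation of the pig embryonic genome, 63.2% of genes were past the fold in IV-D, 60.0% in NT-D and 53.7% in NT-LW. All 3 members were past it in IV-D, BMP4 alone in NT-D, and BMP4 and TGIF1 in NT-LW. TGIF1 was 39.7-fold higher at the 8-cell stage in IV-D (interval 26.6 to 62.3) and 2.28-fold higher in NT-LW (1.89 to 2.77), and its NT-D ratio was 0.939 (0.755 to 1.17). The NT-LW step of TGIF1 fell short of the fold when libraries were rescaled by median ratios or to equal sums (log2 of 0.82 and 0.87 against 1.06). SMAD5 at the 8-cell stage was at 0.265 of its 4-cell level in IV-D (0.240 to 0.293), with ratios of 1.04 in NT-D (0.964 to 1.13) and 1.0 in NT-LW (0.925 to 1.08). BMP4 at the 8-cell stage was at 0.103 of its 4-cell level in IV-D (0.0890 to 0.118), 0.353 in NT-D (0.296 to 0.420) and 0.244 in NT-LW (0.207 to 0.286), so its decline was past the fold in every group.

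From the 8-cell stage to the morula, 25.9% of genes were past the fold in IV-D, 43.6% in NT-D and 34.9% in NT-LW. BMP4 and TGIF1 were past it downwards in IV-D, at 0.136 and 0.302 of their 8-cell levels (intervals 0.0899 to 0.198 and 0.269 to 0.339). No member was past it in either clone group, where TGIF1 was 1.82-fold higher in NT-D morulae (1.52 to 2.19). Its NT-LW ratio of 1.11 was within counting error (0.961 to 1.30). SMAD5 in IV-D (log2 of -0.96) and NT-LW (-0.90) and BMP4 in NT-LW (-0.82) lay just short of the fold and passed it under 2 of 4 alternatives each. The 3 morula libraries thus reached like TGIF1 levels, 11.3, 11 and 13.8 FPKM, from 8-cell levels of 37.2, 6.03 and 12.3.

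The clone groups were then set against IV-D at the same stage. Clones and IV-D embryos differ at once in nuclear transfer, in vitro culture, oocyte source and maturation, sex and genotype. The parts of these in any difference below cannot be told apart. In oocytes, 14.8% of genes were past the fold between the recipient and the IV-D oocytes, and BMP4 was the only member past it, 5.44-fold higher in the recipient oocytes (4.17 to 7.19). At the 1-cell stage 21.9% of genes were past the fold in NT-D and 24.9% in NT-LW, and no member was. BMP4 was at 4.01 in IV-D, 3.92 in NT-D and 2.17 in NT-LW. The NT-LW level was 0.541 of IV-D (0.438 to 0.666). Its log2 difference of -0.66 became -1.003 with median-ratio and -1.032 with trimmed-mean scaling. TGIF1 was at 0.294 of IV-D in NT-D and 0.232 in NT-LW, from 10 fragments in each against 35. It passed the fold with a pseudocount of 0.1 (-1.54 and -1.80). The IV-D 1-cell library also held more of 7 fibroblast markers than the IV-D oocytes (summed FPKM of 35.9 against 5.27, led by COL1A2 at 9.32). The part of these markers in its BMP4 value was not tested. SMAD5 at the 1-cell stage was 1.53-fold the IV-D level in NT-D (1.46 to 1.60) and 1.10-fold in NT-LW (1.045 to 1.15). At the 2-cell stage 8.38% of genes were past the fold in NT-D and 38.2% in NT-LW, and no member was. SMAD5 was then 1.26-fold the IV-D level in NT-D (1.20 to 1.325) and 1.86-fold in NT-LW (1.78 to 1.95). The NT-LW log2 difference of 0.87 was exceeded by 40.4% of genes tested, and was 1.13 when rescaled to equal sums.

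At the 4-cell stage, 22.9% of genes were past the fold in NT-D and 20.2% in NT-LW against IV-D, and 2 of the 3 members were, BMP4 downwards and TGIF1 upwards, in both clone groups. BMP4 was 3.8-fold lower in NT-D (3.42 to 4.25) and 2.27-fold lower in NT-LW (2.09 to 2.47). TGIF1 was 6.86-fold higher in NT-D (4.44 to 11) and 5.76-fold higher in NT-LW (3.74 to 9.25), from 156 and 167 fragments against 24 in IV-D. Larger differences were found in 1.41% of the genes tested in NT-D and 2.63% in NT-LW. SMAD5 was at 0.724 and 0.719 of the IV-D level, short of the fold. The paper describes its replicates of 4-cell embryos as more variable than those of other embryo stages. Both comparisons here rest on the same single IV-D 4-cell library.

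Like TGIF1, the summed fibroblast markers were higher in the clones than in IV-D at the 4-cell stage. Of the 11 genes of that list 7 were in the table, and their summed FPKM was 8.28 in IV-D, 38.8 in NT-D and 37.5 in NT-LW 4-cell embryos, led by COL1A2 in the clones (14.5 and 15.1). SPARC had no fragment in the IV-D 4-cell library and was at 3.79 and 2.69 in the clones. In 1-cell embryos the same sum was at 35.9 in IV-D, 34.4 in NT-D and 25.8 in NT-LW, beside TGIF1 levels of 1.30, 0.383 and 0.303 FPKM. In the 8-cell libraries it was at 4.12, 6.59 and 11.9, beside TGIF1 levels of 37.2, 6.03 and 12.3. The part of these markers in the TGIF1 difference was not tested.

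At the 8-cell stage, 28.3% of genes were past the fold in NT-D and 33.6% in NT-LW, and SMAD5 and TGIF1 were, in opposite directions, in both. TGIF1 was 6.17-fold lower in NT-D (5.29 to 7.23) and 3.02-fold lower in NT-LW (2.67 to 3.42) than in IV-D. A lower difference was found in 2.07% of the genes tested in NT-D and 8.78% in NT-LW. SMAD5 was 2.85-fold higher in NT-D (2.58 to 3.15) and 2.71-fold higher in NT-LW (2.45 to 3.01), with 5.78% and 10.3% of genes above it. The paper lists SMAD5 as induced and TGIF1 as suppressed in NT-D against IV-D at this stage. Its lists come from a test on 3 biological replicates per group, and the values here from 1 library each without a test. The paper says that 2 replicates were added for this stage, so its set may include these libraries. The members were picked with such results known, so their places among all genes are no independent support. BMP4 was level with IV-D in both groups, with ratios of 0.903 (0.740 to 1.10) and 1.04 (0.853 to 1.27).

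Like SMAD5, the summed oocyte transcripts were higher in the clones at this stage. The sum of 9 oocyte-expressed genes in the table was 25.5 FPKM in IV-D, 205 in NT-D and 266 in NT-LW 8-cell embryos, and 6 of the 9 were past the fold upwards in each clone group with none downwards, beside 10.8% of all genes tested upwards in NT-D and 16.3% in NT-LW. The sum was led in the clones by ZP4, a zona pellucida gene, at 5.77, 100.4 and 114 in the 3 groups, while ZP3 of the same family was at 2.04, 0.909 and 1.68. At the 4-cell stage the sums were 1172, 1943 and 1910, beside the SMAD5 ratios of 0.724 and 0.719 given above. In IT, where SMAD5 was higher in both clone groups than in IV-D, the sums were 6.94 in IV-D, 3.35 in NT-D and 3.34 in NT-LW. The part of these transcripts in the SMAD5 difference was not tested.

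In morulae, 22.6% of genes were past the fold in NT-D and 15.7% in NT-LW. SMAD5 was 6.36-fold higher in NT-D (5.52 to 7.36) and 3.31-fold higher in NT-LW (2.83 to 3.87). BMP4 was past the fold in NT-D, 6.33-fold higher (4.30 to 9.60) from 176 fragments against 31, and its 3.35-fold ratio in NT-LW (2.20 to 5.23) fell short of it on the log2(FPKM + 1) scale at levels of 0.425 and 1.43 (0.77, or 1.54 with a pseudocount of 0.1). The NT-D morula library stood apart in the oocyte transcripts, at a sum of 239 against 33.0 in NT-LW and 9.34 in IV-D, led by BMP15 at 116. The part of these transcripts in the SMAD5 and BMP4 differences was not tested. TGIF1 was level in NT-D, at 0.976 of the IV-D morula (0.840 to 1.13). In NT-LW it was at 1.22 of the IV-D morula (1.06 to 1.41), higher beyond counting error but short of the fold.

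In the blastocyst, SMAD5 was past the fold upwards in IT and TGIF1 downwards in TE in both clone groups, and whether the differences themselves differ between IT and TE was not tested. In IT, 24.9% of genes were past the fold in NT-D and 22.4% in NT-LW, and SMAD5 was the only member past it, 3.66-fold higher in NT-D (3.10 to 4.33) and 2.76-fold higher in NT-LW (2.33 to 3.29). TGIF1 in IT was at 0.666 of the IV-D level in NT-D (0.559 to 0.792) and 0.647 in NT-LW (0.543 to 0.770), lower beyond counting error but short of the fold. BMP4 in IT was 2.43-fold the IV-D level in NT-D (1.53 to 3.98) and 3.47-fold in NT-LW (2.24 to 5.57), also short of the fold at levels of 0.388 to 1.34, and the NT-LW value passed it with a pseudocount of 0.1 (log2 of 1.57 against 0.76). In TE, 7.36% and 16.5% of genes were past the fold, and TGIF1 was the only member past it, at 0.301 of the IV-D level in NT-D (0.227 to 0.395) and 0.422 in NT-LW (0.333 to 0.532). The NT-LW value fell short of the fold after median-ratio or trimmed-mean scaling (log2 of -0.90 and -0.91 against -1.07). SMAD5 in TE was 1.37-fold the IV-D level in NT-D (1.22 to 1.53), and in NT-LW it was at 0.458 of IV-D (0.395 to 0.529), a log2 difference of -0.91 that passed the fold with a pseudocount of 0.1 (-1.10). The 2 clone groups differed past the fold in 1 member at 1 stage, SMAD5 in TE, at 8.80 FPKM in NT-D and 2.95 in NT-LW, where 11.4% of genes were past it. TGIF1 at the 8-cell stage came next, with NT-D at 0.489 of NT-LW (0.407 to 0.587), a log2 difference of -0.92 just short of the fold. The alternative pseudocount and scalings were not applied to differences between the clone groups, so this count holds for the main setting only.

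**Figure D2:**
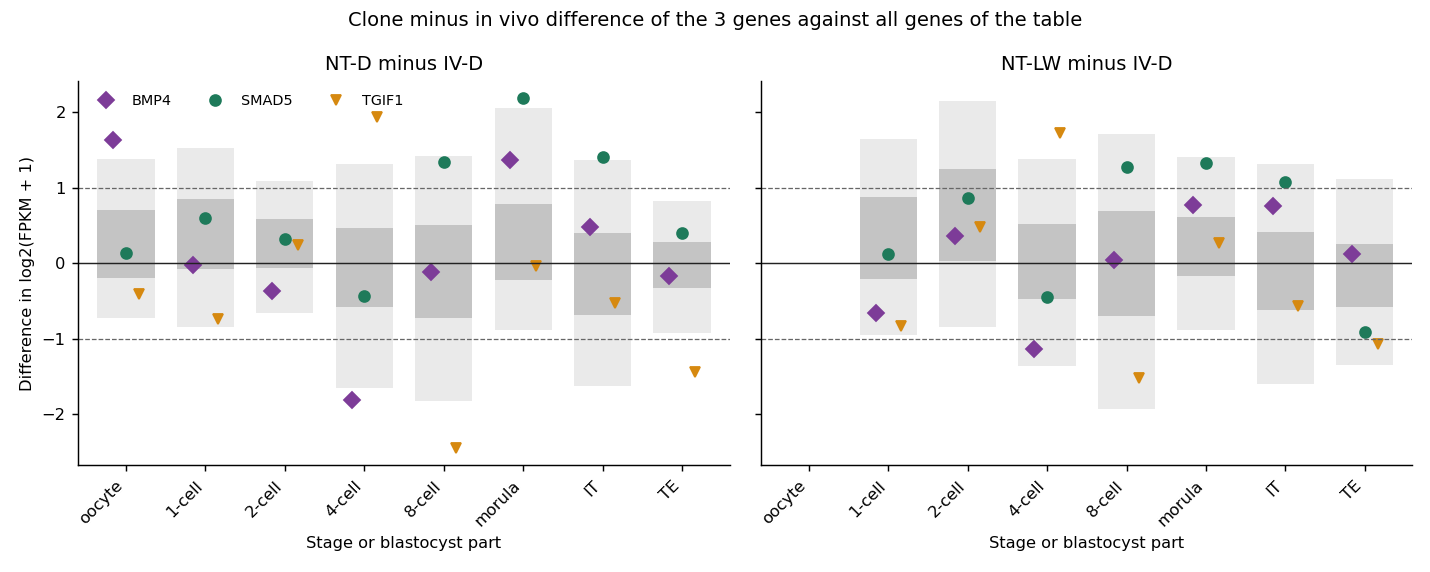
Difference in log2(FPKM + 1) between each clone group and IV-D for BMP4 (diamonds), SMAD5 (circles) and TGIF1 (triangles) at each stage, over boxes that span the central 50% (dark) and 90% (light) of all genes tested, with dashed lines at the fold. TGIF1 lies above the light box at the 4-cell stage in both groups (1.94 and 1.72), and below it at the 8-cell stage in NT-D (-2.44) but within it in NT-LW (-1.52).

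Within the blastocyst, the 3 genes did not share a pattern between IT and TE. In IV-D 27.8% of genes were past the fold between the parts, in NT-D 4.71% and in NT-LW 6.25%. SMAD5 was past it in IV-D, where IT was at 0.260 of TE (0.218 to 0.308), and was at 0.696 of TE in NT-D (0.628 to 0.772) and 1.57 of it in NT-LW (1.36 to 1.81). TGIF1 was 2.41-fold higher in IT than in TE in NT-D (1.83 to 3.19), a log2 difference of 1.03 that was 0.98 after median-ratio scaling. Its IT to TE ratio was 1.09 in IV-D (0.914 to 1.30) and 1.67 in NT-LW (1.33 to 2.12). BMP4 was at 26 to 100 fragments in these 6 libraries and was past the fold in none of the groups.

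The other SMADs place SMAD5 in its family. Besides SMAD5 the table holds SMAD1 (its partner in BMP signalling), SMAD2 (activated by activin and nodal receptors), SMAD4 (the common partner) and SMAD6 (an inhibitor of BMP receptors). SMAD1 was also high in oocytes, at 35.2 FPKM in IV-D oocytes and 26.0 in recipient oocytes, and at the 8-cell stage was at 1.87 in IV-D, 3.31 in NT-D and 5.01 in NT-LW. SMAD5 made up 48.8% of SMAD1 plus SMAD5 in IV-D oocytes and 58.7% in recipient oocytes, and 71.7%, 80.3% and 72% at the 8-cell stage in IV-D, NT-D and NT-LW. In TE the 2 clone groups parted, with SMAD5 at 74.7% in NT-D and 34.9% in NT-LW, against 76.4% in IV-D.

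SMAD2 and SMAD4 were lower in oocytes than at the 8-cell stage in every group, and differed from each other after it. SMAD2 was at 5.79 FPKM in IV-D oocytes and reached its highest level at the 8-cell stage in every group, 37.4 in IV-D, 26.0 in NT-D and 21.7 in NT-LW. The ratio of SMAD1 plus SMAD5 to SMAD2 went from 11.9 in IV-D oocytes to 0.177 in IV-D 8-cell embryos, the lowest of the 23 libraries, against 0.647 in NT-D and 0.823 in NT-LW 8-cell embryos. SMAD4 was at 0.238 to 0.437 FPKM up to the 4-cell stage in IV-D and at 3.61 at the 8-cell stage, where NT-D was at 5.28 and NT-LW at 9.44. SMAD6 was below 0.25 FPKM in the 3 8-cell libraries and at 4.11 to 8.10 in morulae.

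**Figure D3:**
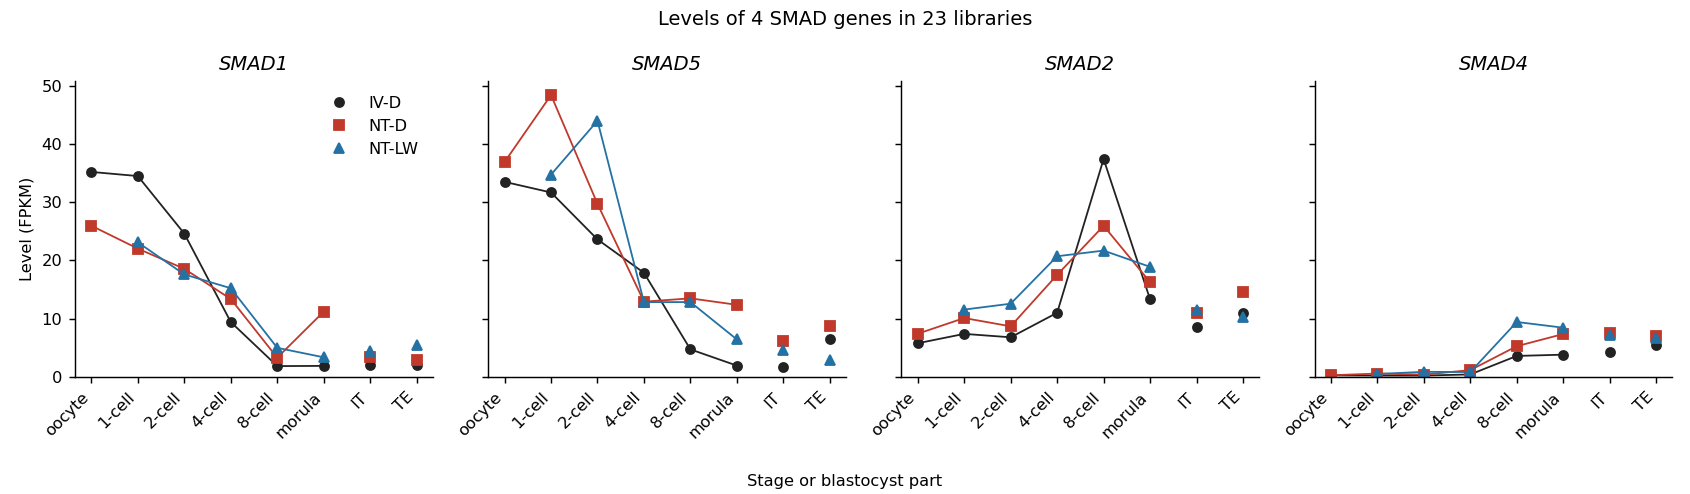
Levels (FPKM, linear axis from 0) of SMAD1, SMAD5, SMAD2 and SMAD4 by stage or blastocyst part, 1 library per point, symbols as for the 3 genes. SMAD1 and SMAD5 start high and end low, SMAD2 has its highest point at the 8-cell stage (37.4 in IV-D, 26.0 in NT-D and 21.7 in NT-LW), and SMAD4 is below 1.2 until the 4-cell stage.

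The pathway around the members was described with 8 lists of ligands, receptors, secreted antagonists, SMADs, SMAD regulators, target genes and TALE homeobox genes, of whose 130 genes other than the members 53 were in the table. At the 8-cell stage 5 of the 53 were past the fold upwards and 5 downwards in NT-D, and 14 and 6 in NT-LW, beside 10.8% and 17.4% of all genes tested in NT-D and 16.3% and 17.3% in NT-LW. With median-ratio scaling 11 of the 53 were upwards and 5 downwards in NT-D, beside 14.0% and 13% of all genes tested. Their median difference in log2(FPKM + 1) was 0.08 for NT-D and 0.20 for NT-LW, against -0.12 and -0.02 over all genes tested. From the 4-cell to the 8-cell stage in IV-D, 14 of the 53 were past the fold upwards and 13 downwards, beside 35.0% and 28.1% of all genes tested. The 53 include genes below 1 FPKM in both libraries, such as ACVR1B at the 8-cell stage, which the shares leave out, so the 2 are not on the same footing.

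Among the BMP ligands in the table, BMP15 and GDF9 were each above BMP4 in 17 of the 23 libraries, and BMP4 was above each in 6. BMP15 and GDF9, which oocytes secrete to act on the cells around them, were at 50.7 and 30.8 FPKM in IV-D oocytes, at 2.02 and 1.70 in IV-D 8-cell embryos, at 48.4 and 11.5 in NT-D and at 56.8 and 24.9 in NT-LW 8-cell embryos, past the fold in both clone groups. They belong to the oocyte list above as well. BMP6 was below BMP4 in 22 of the 23 libraries. GDF3, a nodal-related ligand, was at 27.9 in IV-D, 20.4 in NT-D and 7.05 in NT-LW 8-cell embryos, past the fold in NT-LW only.

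None of the 8 receptors and co-receptors in the table was past the fold at the 8-cell stage in NT-D, and 3 were higher in NT-LW, where 16.3% of all genes tested were higher. BMPR1B, a type I BMP receptor, was at 2.82 FPKM in IV-D, 4.71 in NT-D and 7.87 in NT-LW, and ACVR1B, a type I activin receptor, was at or below 0.15 in all 3. BAMBI, a pseudoreceptor that dampens signalling, was at 3.06, 2.18 and 2.85. Among 6 antagonists and processing genes FST, which binds activin and BMPs, had no fragment in IV-D 8-cell embryos and was at 2.75 (55 fragments) in NT-D and 4.54 (77 fragments) in NT-LW. FST was the only antagonist higher in IT than in TE in all 3 groups, at 52.4 against 7.16 in IV-D, 25.4 against 10.6 in NT-D and 33.0 against 7.54 in NT-LW. BMPER and LTBP1, which bind BMPs and latent TGF-beta, had their highest levels in clone 1-cell and 2-cell embryos, 14.8 in NT-D 1-cell and 14.1 in NT-LW 2-cell embryos.

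TGIF1 stood among 20 SMAD regulators and corepressors, of which 3 were lower and none higher in NT-D at the 8-cell stage, and 3 lower and 1 higher in NT-LW. These counts of lower genes are close to the 17.4% and 17.3% of all genes tested that were lower, so they do not set the list apart. The 3 lower in both were TGIF1 itself, HDAC1, a histone deacetylase, at 29.6 FPKM in IV-D, 12 in NT-D and 11.4 in NT-LW, and NEDD4L, a ubiquitin ligase for SMADs, at 11.5, 4.38 and 4.70. SIN3A, a corepressor scaffold, was the list's most abundant gene, at 442 in NT-LW 1-cell embryos and 11.3, 12.2 and 25.2 at the 8-cell stage. SMURF2, a ubiquitin ligase that marks SMADs and receptors, was at 94.9 in NT-D 1-cell embryos and 1.54, 1.68 and 3.22 at the 8-cell stage. DRAP1, a repressor of nodal signalling, was highest in IV-D IT at 86.5. Of the other TALE genes, PBX3 was higher in the clones, at 16.4 in NT-D and 23.2 in NT-LW against 7.6 in IV-D 8-cell embryos, and PKNOX1 was at 3.62, 3.20 and 4.04.

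Of the 12 known BMP and TGF-beta target genes in the table, 1 was higher and 3 lower in NT-D at the 8-cell stage, and 2 higher and 3 lower in NT-LW, beside 10.8% higher and 17.4% lower among all genes tested in NT-D and 16.3% and 17.3% in NT-LW. PMEPA1, an inhibitor of TGF-beta signalling that the pathway itself induces, was at 7.0 FPKM in IV-D, 1.28 in NT-D and 0.392 in NT-LW. GSC, a nodal and activin target, was at 15.6, 4.67 and 1.76, and the homeobox gene MSX2 was at 6.48, 1.16 and 0.770. ID2, a dominant-negative helix-loop-helix factor, was the one higher in both, at 1.16 in IV-D, 5.74 in NT-D and 5.14 in NT-LW. ID3 of the same family was at 3405 in IV-D oocytes and 5967 in recipient oocytes, and at 7.46, 15.2 and 9.95 at the 8-cell stage.

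CCN2, a secreted matrix protein induced by TGF-beta, was ahead in the clones at the 4-cell stage, as TGIF1 was, at 65 in NT-D and 62.8 in NT-LW against 3.38 in IV-D, and at 62.7, 56.2 and 33.5 at the 8-cell stage. These 8-cell values were short of the fold in both clone groups. Between IT and TE, 9 of the 12 targets were higher in IT and none lower in IV-D, with a median difference of 2.02 against 0.19 over all genes tested, of which 18.0% were higher. In NT-D 3 and in NT-LW 4 of the 12 were higher in IT, beside 4.32% and 5.07% of all genes tested, with medians of 0.33 and 0.28. GSC was among them in every group, at 39.4 in IT against no fragment in TE in IV-D, 4.29 against no fragment in NT-D, and 7.32 against 1.04 in NT-LW.

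**Figure D4:**
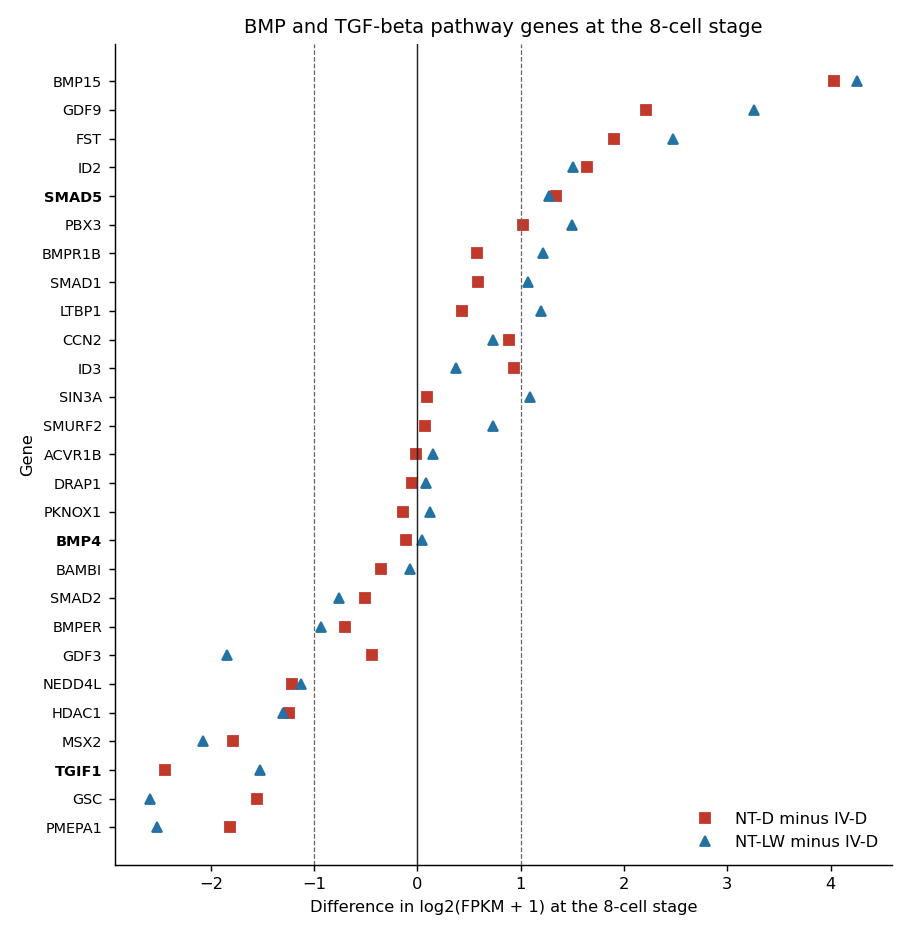
Difference in log2(FPKM + 1) at the 8-cell stage between NT-D (squares) or NT-LW (triangles) and IV-D for the pathway genes named here, ordered by the sum of both differences, with the members in bold and dashed lines at the fold. Both comparisons use the same IV-D library. TGIF1 (-2.44 and -1.52) lies near the lower end beside GSC and PMEPA1, SMAD5 (1.34 and 1.27) near the upper end below BMP15, GDF9 and FST, and BMP4 (-0.11 and 0.05) near 0.

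Genes with a like course were sought among the 6734 named genes that reached an FPKM of 5 in any library, by Pearson's r of log2(FPKM + 1) over the 23 libraries. BMP4 was most like LRRC42 (r of 0.90), a leucine-rich repeat protein gene that was also highest in IV-D 4-cell embryos, at 117 FPKM against 24.5 in NT-D and 41.8 in NT-LW. SYT11 (0.89), NRAS (0.89), DGKG (0.88) and CPEB3 (0.87) followed, all highest in IV-D 4-cell embryos.

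SMAD5 was most like MAP4K5 (r of 0.96), a kinase gene at 21.2 FPKM in IV-D oocytes and at 4.74 in IV-D, 7.70 in NT-D and 7.95 in NT-LW 8-cell embryos. NFXL1 (0.95), SLAIN2 (0.95), GSR (0.95) and SOS2 (0.94) came next. TGIF1 was most like KLHL24 (r of 0.93), a kelch family gene at 5.88 in IV-D, 3.67 in NT-D and 4.51 in NT-LW 8-cell embryos, followed by HES1, a Notch target (0.92), CSTF2T (0.92), METAP1 (0.92) and SORD (0.92). In the 12 libraries from the 8-cell stage on, none of the 5 genes named for any member was among its 5 most alike. Over those 12 libraries r was 0.795 to 0.876 for the genes named for SMAD5, 0.675 to 0.818 for those of TGIF1 and 0.418 to 0.828 for those of BMP4.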

How the data were processed

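Oocytes and embryos were pooled per condition, and per the labels and the study's methods cDNA was made with SMART-Seq v4, sequenced as paired 150-base reads on an Illumina platform, aligned to Sscrofa11.1 with HISAT2 2.0.4 and counted with HTSeq 0.9.1 on Ensembl genes. The authors deposited FPKM values for 8603 genes in 23 libraries, which serve as given. How these genes were chosen is not given in the sources used here beyond the table's name, and samples of the study outside these 23 were not analysed here. Strand use in counting is not given in the sources used here. Symbols were available for 7371 genes.

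An FPKM value equals a fragment count over gene length and depth. Both were solved from the table's steps, which left all 8603 genes within 0.05 fragment of whole numbers, with lengths of 3457 (BMP4), 5505 (SMAD5) and 1615 bases (TGIF1). On simulated data of 3000 genes all 23 depths were recovered. Whether depth counts all mapped fragments is not known. Values behind 100 fragments or fewer are imprecise by counting alone, and arithmetic was done in Python 3.11.15 with scipy 1.17.1.

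Samples were grouped by their titles. Comparisons used log2(FPKM + 1) and the fold rule without a test. The members and gene lists were chosen with earlier results of these data known. The genes named are the members, per pathway list the 3 with the highest FPKM, those past the fold in the same direction in both clone groups at the 8-cell stage or between IT and TE in all groups, and the 5 most like each member. SMAD4, SMAD6, BMP6 and the markers NANOG, PDGFRA, SPARC and ZP3 are named outside this rule, after their values were seen. Upstream sequences come from NCBI RefSeq on Sscrofa11.1. Alternatives were a pseudocount of 0.1, median-ratio, equal-sum and trimmed-mean scaling, filters on low values, and other measures or libraries for likeness.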

Additional observations from a re-analysis of the deposited data

Results flagged for a closer look

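In 7 instances a member went up in IV-D and down in a clone group, or the reverse, over the same step. Both steps were beyond counting error, and at least one was past the fold. The rule was not applied to the other genes, so no share of all genes stands beside this count. Some instances share libraries, such as those of IV-D and the recipient oocytes. None of these differences was tested, since each group has 1 library per stage. BMP4 went up from oocyte to 1-cell embryo in IV-D (log2 difference of 1.39) and down in NT-D and NT-LW (-0.27 and -0.91), a gap of 1.66 and 2.30. The oocytes of IV-D and of the clones differ in maturation and breed as well.

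TGIF1 went down from the 8-cell stage to the morula in IV-D (-1.64) and up in NT-D (0.77), a gap of 2.41. From morula to TE, SMAD5 went up in IV-D (1.34) and down in NT-D (-0.45) and NT-LW (-0.91), gaps of 1.79 and 2.25. BMP4 over the same step went up in IV-D (0.32, from 31 and 40 fragments) and down in NT-D (-1.23), a gap of 1.54, which rests on the NT-D morula library, whose oocyte transcripts were the highest of the 3 morula libraries. The NT-D step of BMP4 fell short of the fold with median-ratio and trimmed-mean scaling (-0.75 and -0.86). Between TE and IT, SMAD5 was lower in IT in IV-D (-1.48) and higher in NT-LW (0.51), a gap of 1.99.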

How the results depend on the processing

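For the clone against IV-D differences of the members in 4-cell and in 8-cell embryos, every one past the fold kept its direction and stayed past it under the 4 alternatives. Those that moved beyond counting error are given as log2 differences. With a pseudocount of 0.1 TGIF1 in 4-cell embryos moved to 2.65 (NT-D) and 2.41 (NT-LW), and SMAD5 at the 8-cell stage 1.49 and 1.42. With median-ratio scaling, NT-D was at -0.33 for SMAD5 at the 4-cell stage, and at 1.47 for SMAD5 and -2.23 for TGIF1 at the 8-cell stage. With trimmed-mean scaling NT-D 8-cell embryos were at 1.53 for SMAD5 and -2.22 for TGIF1. Rescaled to equal sums, the 8-cell stage was at -0.34 for BMP4, 1.16 for SMAD5 and -2.77 for TGIF1 in NT-D, and at -0.18, 1.08 and -1.82 in NT-LW, where the 4-cell stage was at -1.27 for BMP4 and -0.57 for SMAD5. In these comparisons the scalings moved the median of all genes by -0.25 to 0.20, and in all comparisons, stage steps included, by -0.77 to 0.74.

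The alternatives covered 117 member differences, and those between the 2 clone groups were left out. Of their 468 values 202 moved beyond counting error, 9 were no longer past the fold, 35 came to be past it, and none past it changed direction. Beside the 53 pathway genes, median-ratio scaling put 11 in place of 5 upwards in NT-D 8-cell embryos, where the share of all genes upwards went from 10.8% to 14.0%. Of the 5 genes most like each member, Spearman's rho kept 1 for BMP4, 1 for SMAD5 and 2 for TGIF1, the 8 IV-D libraries kept 1, 0 and 1, and leaving out the IV-D 1-cell and NT-D morula libraries, an alternative chosen after seeing the data, kept 4 for each. The cause of these shifts was not tested. No paired analysis was possible because the result comes from no test, with 1 library per condition. Levels of TGIF1 up to the 2-cell stage rest on 40 fragments or fewer.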
